A study of Mus musculus with 4 samples.

Results

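Messenger RNAs of 10 genes whose products restrain signalling from the T cell receptor were followed in CD8 T cells of mouse hepatocellular carcinoma. The genes are Cblb, Itch, Ubash3a, Dgka, Dgkz, Ptpn22, Ptpn6, Ptpn2, Cd5 and Cd6. They were found by symbol in a table of read counts, where all 10 of 10 had a row among 14934 genes. All 10 also passed the filter on low counts, which left 11563 genes. A flow cytometric sort split the tumour's CD8 T cells by surface JAML, an adhesion receptor of the immunoglobulin superfamily. There were 2 libraries, A and B, of JAML-positive cells and 2 of JAML-negative cells. Both groups were of wild-type genotype and neither had a recorded treatment. Strain, age and the way the tumours arose are missing from the sources used here. Whether A and B stand for different animals is also unknown, so the p-values below reflect library-to-library spread that could be purely technical.

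A T cell receptor that meets its antigen is phosphorylated by the kinase LCK and recruits the kinase ZAP70, which passes the signal to adaptors and to phospholipase C-gamma. The enzymes and receptors described here act against that chain at different points. Tyrosine phosphatases remove the phosphate groups, ubiquitin ligases mark signalling proteins for removal or inactivation, and diacylglycerol kinases consume the lipid messenger that phospholipase C releases. In tumour-infiltrating CD8 T cells several of these proteins have been studied as intracellular checkpoints, because their loss makes T cells easier to activate. Messenger RNA levels do not report the phosphorylation or the activity of these proteins.

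Depth was similar in all libraries, at 27717149 and 30569728 counts in JAML-positive and 27819178 and 27530187 counts in JAML-negative libraries. JAML-positive library A stood apart from the rest. The share of counts on ribosomal protein genes was 12.1% there, against 7.43% in JAML-positive library B and 8.27% to 8.32% in JAML-negative libraries. Transcripts that define CD8 T cells were abundant in every library, with Cd8a at 1048 ± 5.48 CPM (counts scaled to library size) in JAML-positive and 1069 ± 63.3 CPM in JAML-negative cells (SD, n = 2 each). Jaml, the gene of the sorted protein, was at 138 and 147 CPM in JAML-positive and 131 and 117 CPM in JAML-negative libraries A and B. Jaml did not pass (log2 fold change 0.20, SE 0.26, edgeR adjusted p = 0.881), so the direction of each difference below rests on the labels. RNA of other cells was present as well. The lists of B and plasma cell markers and of dendritic cell and major histocompatibility complex class II markers summed to higher levels in both JAML-positive libraries. In each of these lists 1 tested marker was lower, Fcer2a in the first and Itgax in the second. For the first list the sums were 126 and 90.0 CPM in JAML-positive and 19.2 and 22.5 CPM in JAML-negative libraries A and B. For the second they were 630.0 and 464 CPM in JAML-positive and 252 and 245 CPM in JAML-negative libraries A and B.

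The windows at transcription starts, available for 7 of the 10 genes, differ in base composition, and 3 of them are shown because the results turn on these genes. Dgka and Ptpn22 were the pair with the lowest JAML-positive levels relative to JAML-negative ones, and Dgkz is the other diacylglycerol kinase. Each is the first listed RefSeq window of its gene on GRCm38.p6, from 250 bases before to 50 bases after a start, read along the gene's strand. The windows of Ptpn22 and Dgkz lie wholly inside the span of the gene, so their starts are internal ones. That of Dgka lies at the outer end of its gene. Dgka has 4 listed windows, Ptpn22 2 and Dgkz 2, and the later ones were not examined gene by gene. RefSeq windows matched 7 of the 10 genes. Itch, Ptpn2 and Cd6 had none. Capitals mark matches, on either strand, to any of 10 motifs searched. The matches in these 3 windows were to TGGAAA, the core bound by NFAT, to GGGCGG, the GC box, and to TATAAA, the TATA box.
Dgka, chr10:128745035-128745334, minus strand: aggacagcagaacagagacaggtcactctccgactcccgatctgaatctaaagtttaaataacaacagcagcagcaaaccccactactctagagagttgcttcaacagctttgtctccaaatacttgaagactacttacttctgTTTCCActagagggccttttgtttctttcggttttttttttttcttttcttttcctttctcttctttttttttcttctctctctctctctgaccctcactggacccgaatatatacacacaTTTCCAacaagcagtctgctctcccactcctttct
Ptpn22, chr3:103859545-103859844, plus strand: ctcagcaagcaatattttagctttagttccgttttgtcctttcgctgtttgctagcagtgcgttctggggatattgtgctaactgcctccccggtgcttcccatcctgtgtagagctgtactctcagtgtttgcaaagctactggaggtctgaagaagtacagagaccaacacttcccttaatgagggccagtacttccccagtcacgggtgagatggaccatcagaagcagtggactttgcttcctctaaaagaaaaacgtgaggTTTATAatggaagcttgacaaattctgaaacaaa
Dgkz, chr2:91963514-91963813, minus strand: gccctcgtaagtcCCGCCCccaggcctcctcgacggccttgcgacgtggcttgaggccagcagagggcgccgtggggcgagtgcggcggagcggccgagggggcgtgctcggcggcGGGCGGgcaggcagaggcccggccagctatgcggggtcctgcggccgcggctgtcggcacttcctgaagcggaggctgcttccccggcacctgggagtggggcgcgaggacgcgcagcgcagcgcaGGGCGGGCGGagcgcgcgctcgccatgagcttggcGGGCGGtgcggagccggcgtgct

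The Dgka window held 41.3% G and C with 4 CpG pairs, and the Ptpn22 window 46% with 6 CpG pairs. The Dgkz window held 77.7% with 43 CpG pairs, where the median of all 32851 windows was 52.7% with 7 CpG pairs. TGGAAA or its complement stood in the Dgka window at positions -106 and 16 from the start. It is found in 21.4% of all windows of this length, and in 3 of the 7 windows of these genes. GGGCGG was present in the Dgkz window, at 5 places of which 2 overlap, and in 35.7% of all windows. The Ptpn22 window held TATAAA on the opposite strand at position 17, a motif of 13.6% of windows. The 7 windows held no match to 7 further motifs. These were GTAAACA (forkhead factors, 3.65% of all windows), TGTGGT (RUNX, 16.8%), CCGGAAG (ETS, 8.86%), TGACTCA (AP-1, 5.2%), TGACGTCA (CREB, 1.79%), CTTTGAT (TCF and LEF, 3.73%) and CACGTG (MYC, 7.15%). A match is only an occurrence of the letters, and no match says only that they are not in that window.

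The question put by the design is whether these restraints on the receptor are expressed differently between the JAML-positive and the JAML-negative fraction of the tumour's CD8 T cells. Dgka and Ptpn22 had the lowest values in JAML-positive cells relative to JAML-negative cells, by 29.3% and 28.1% in the fitted estimate. Ptpn2 had the highest relative value, by 28.6%. With edgeR's quasi-likelihood test and Benjamini-Hochberg adjustment over all 11563 genes at a threshold of 0.05, 0 of the 10 genes passed in either direction, and neither did any other gene (0% higher and 0% lower). Adjusted p-values of the 10 genes lay between 0.609 and 0.981. At an unadjusted p under 0.05 there were 2 of the 10, Dgka and Ptpn22, both lower, where 7.65% of all genes reached that level (3.34% lower and 4.32% higher). Limma-voom called 0 genes (0%). DESeq2 called 835 of 12328 genes (6.77%, with 3.95% higher and 2.82% lower), among them Dgka and Ptpn22 as lower. On counts simulated for 2 against 2 libraries, DESeq2 made 151 false calls among unchanged genes, and edgeR made 7. There DESeq2 recovered 19% of 100 genes with a log2 change of 1 in size and 74% of 100 with 2. Its calls of Dgka and Ptpn22 therefore cannot be taken at the stated threshold.

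By CPM, the libraries of the groups did not overlap for 6 of the 10 genes, where 38.5% of all genes were so separated. Cblb, Itch, Dgka and Ptpn22 lay below in both JAML-positive libraries (18.2% of all genes), and Ptpn6 and Ptpn2 lay above (20.3%). Fold changes were 5 higher and 5 lower, with a median of -0.08 on the log2 scale against 0.01 over all genes tested. The size of the log2 fold changes, without their sign, had a median of 0.28 for the 10 genes and 0.44 for all genes. All 10 are well expressed, with at least 2294 counts in every library, and their standard errors had a median of 0.24 against 0.56 for all genes. Counting error was at most 2.09% per value, so depth alone did not set these errors. EdgeR shares its estimate of spread across genes, so they do not follow each gene's own libraries closely. Dgkz, with an SD of 5.39% of the mean in JAML-positive and 4.84% in JAML-negative cells, had an SE of 0.22. Cd6, with 12.4% and 10.2%, had 0.23.

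**Figure D1:**
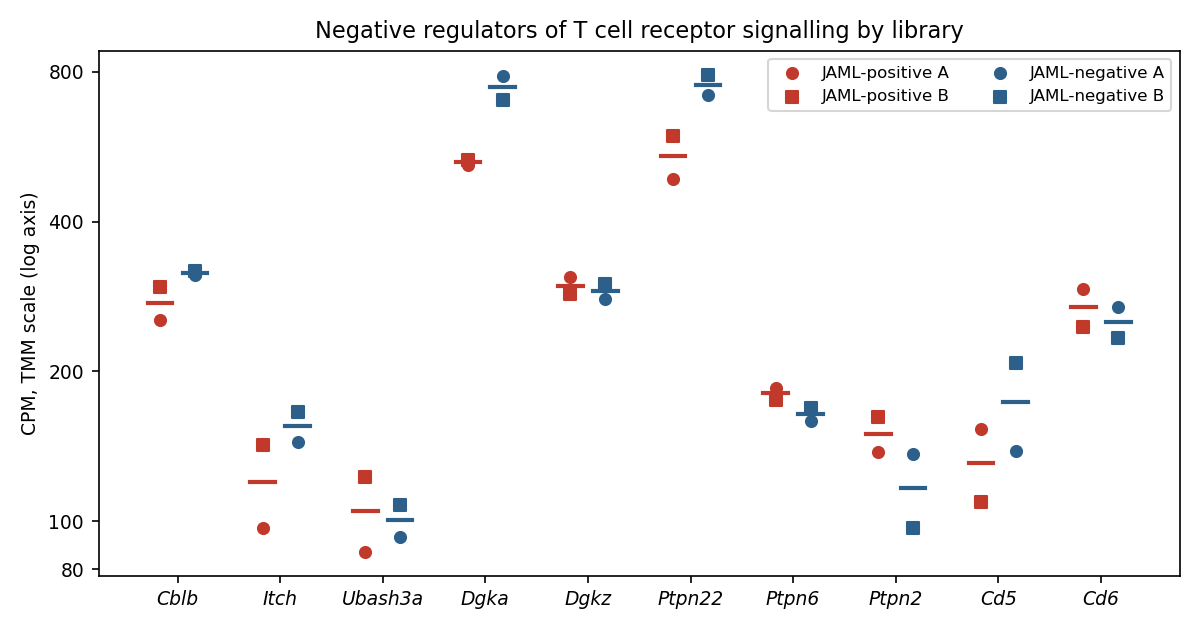
CPM of each gene (log axis) in JAML-positive (left, red) and JAML-negative (right, blue) libraries, with library A as a circle, B as a square and the group mean as a bar (n = 2 each). Dgka stood at 520.5 and 531 CPM in JAML-positive libraries, below 785 and 703 CPM in JAML-negative ones, while Dgkz did not separate the groups.

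The diacylglycerol kinases phosphorylate diacylglycerol, the messenger that recruits RASGRP1 and protein kinase C-theta, and so end its signal. The alpha and zeta enzymes, encoded by Dgka (Entrez 13139, chromosome 10, 128720131 to 128745084, GRCm38.p6) and Dgkz (Entrez 104418, chromosome 2, 91932822 to 91976443), are the forms best known in T cells. Dgka was at 520.5 and 531 CPM in JAML-positive and 785 and 703 CPM in JAML-negative libraries A and B. The JAML-positive libraries were close to each other and both lay under both JAML-negative libraries. The mean was 526 ± 7.79 CPM in JAML-positive and 744 ± 58.3 CPM in JAML-negative cells (SD, n = 2 each). The log2 fold change was -0.50 (SE 0.20, 95% interval -0.93 to -0.07), with an unadjusted p of 0.0262 and an adjusted p of 0.609 by edgeR. Across the 4 possible pairs of a JAML-positive with a JAML-negative library, the ratio ranged from 0.663 to 0.756. DESeq2, which made 151 false calls on simulated counts, gave -0.52 (SE 0.14, adjusted p = 0.00555). That call was kept without JAML-positive A (0.00168), JAML-positive B (2.47e-04) or JAML-negative B (0.0128), and not without JAML-negative A (-0.43, adjusted p = 0.0930). On the opposite strand the melanosome gene Pmel overlaps 2.2% of the exonic bases of Dgka, and no source used here states whether counting used strand.

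Dgkz was at 309 and 286 CPM in JAML-positive and 279.9 and 299.7 CPM in JAML-negative libraries A and B. The groups overlapped, with the JAML-positive libraries on either side of the upper JAML-negative library. The fitted difference was 0.04 on the log2 scale (SE 0.22, edgeR adjusted p = 0.981), and its 95% interval allowed a level between 0.742-fold and 1.42-fold. The gene Gm9821 overlaps 3.54% of its exonic bases on the opposite strand. Of the 10 genes Dgkz had the smallest difference between groups in this fit. With trends of transcript length and base composition removed its value was 0.30 (edgeR adjusted p = 0.699).

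Ptpn22 (Entrez 19260, chromosome 3, 103856575 to 103912252) encodes the phosphatase PEP, which acts on LCK and ZAP70 and associates with the kinase CSK. It was at 488 and 594 CPM in JAML-positive and 717 and 789.5 CPM in JAML-negative libraries A and B. Both JAML-positive libraries were lower than both JAML-negative ones, and JAML-positive A was the lowest. Means were 541 ± 74.9 CPM in JAML-positive and 754 ± 50.9 CPM in JAML-negative cells (SD, n = 2 each), with a log2 fold change of -0.48 (SE 0.20, 95% interval -0.92 to -0.03). Its unadjusted p was 0.0378 and its edgeR adjusted p 0.609. DESeq2 gave -0.49 (SE 0.17, adjusted p = 0.0474), which did not pass without JAML-negative A (0.0792) or JAML-negative B (0.226). Without JAML-positive A, the library with the high ribosomal share, the edgeR value was -0.34 (adjusted p = 0.881).

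Neither of the other phosphatases passed, and both had positive estimates. Ptpn6 (Entrez 15170, chromosome 6, 124720707 to 124738709) encodes SHP-1, which carries SH2 domains and docks to inhibitory receptors. It was at 185 and 176 CPM in JAML-positive and 159 and 169 CPM in JAML-negative libraries A and B. The groups did not overlap, but the difference was small at 0.14 on the log2 scale (SE 0.24, edgeR adjusted p = 0.912). A non-coding antisense gene covers 6.96% of its exonic bases. Ptpn2 (Entrez 19255, chromosome 18) encodes a phosphatase of LCK and FYN and of the cytokine receptor kinases JAK1 and JAK3. It was at 138 and 162 CPM in JAML-positive and 136 and 97.0 CPM in JAML-negative libraries A and B. JAML-positive A and JAML-negative A were nearly level, and JAML-negative B was the low library. On the log2 scale the difference was 0.36 (SE 0.28, edgeR adjusted p = 0.770), between 0.14 without JAML-negative B and 0.62 without JAML-negative A.

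**Figure D2:**
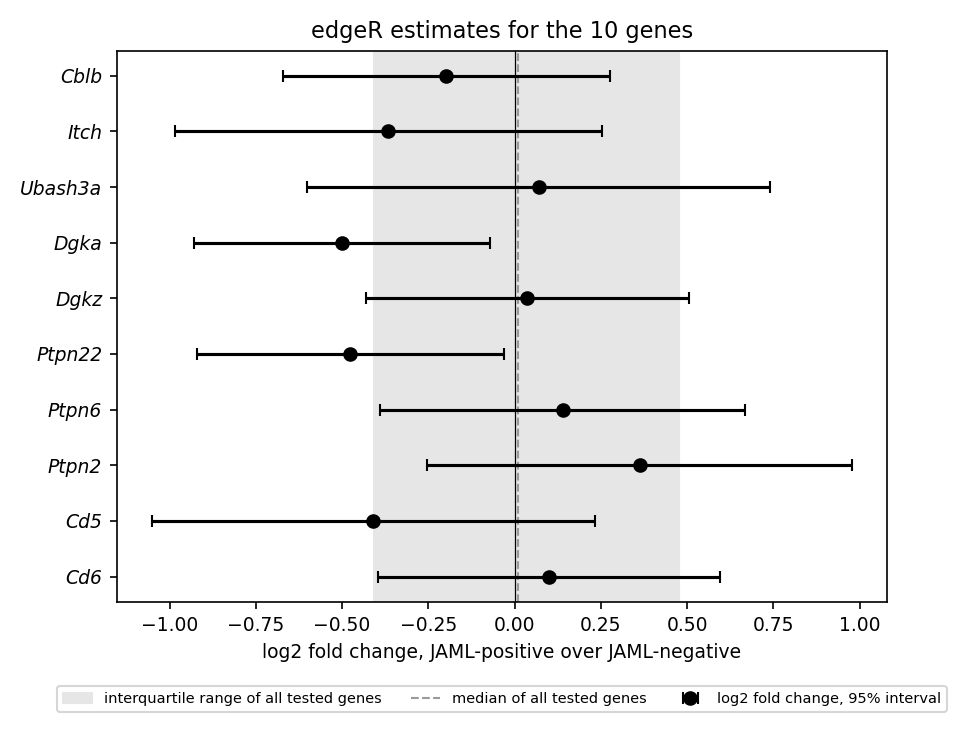
Log2 fold change of JAML-positive over JAML-negative cells for each gene with its 95% interval from edgeR (n = 2 each). The grey band is the interquartile range of all 11563 genes, -0.41 to 0.48, and the intervals of Dgka and Ptpn22 end below 0, at -0.07 and -0.03, before adjustment for the number of genes.

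CBL-B, encoded by Cblb (Entrez 208650, chromosome 16, 52031230 to 52208047), is a RING-type ubiquitin ligase that makes activation depend on CD28 costimulation. Cblb was at 254 and 295 CPM in JAML-positive and 312 and 319 CPM in JAML-negative libraries A and B. Both JAML-positive libraries were lower, by more in A than in B. Its fitted value was -0.20 on the log2 scale (SE 0.22, edgeR adjusted p = 0.852), -0.09 without JAML-positive A and -0.32 without JAML-positive B. ITCH, encoded by Itch (Entrez 16396, chromosome 2, 155133481 to 155226855), is a HECT-type ubiquitin ligase of JUNB and of phospholipase C-gamma. It was at 96.8 and 142 CPM in JAML-positive and 145 and 166 CPM in JAML-negative libraries A and B. JAML-positive A was far below the rest, and JAML-positive B lay just under JAML-negative A. Itch had a log2 difference of -0.37 (SE 0.28, edgeR adjusted p = 0.769), -0.12 without JAML-positive A and -0.69 without JAML-positive B. UBASH3A, encoded by Ubash3a (Entrez 328795, chromosome 17, 31207868 to 31259681), binds ubiquitin and CBL proteins and dampens receptor signalling. Ubash3a was at 86.8 and 123 CPM in JAML-positive and 93.1 and 108 CPM in JAML-negative libraries A and B. The JAML-positive libraries enclosed both JAML-negative ones, with a log2 difference of 0.07 (SE 0.31, edgeR adjusted p = 0.973).

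CD5 and CD6 are surface glycoproteins of the scavenger receptor family, and their cytoplasmic tails gather inhibitory and adaptor proteins near the receptor. Cd5 is known as a gauge of the receptor signal a T cell received in the thymus, and CD6 binds ALCAM on other cells. Their genes are neighbours on chromosome 19, with Cd5 (Entrez 12507) at 10718107 to 10739026 and Cd6 (Entrez 12511) at 10789339 to 10830062, 50.3 kilobases apart. Cd5 was at 153 and 109 CPM in JAML-positive and 139 and 208 CPM in JAML-negative libraries A and B. The groups overlapped, and the libraries of a group differed by 23.7% of the mean in JAML-positive and 28.3% in JAML-negative cells (SD as a share of the mean). Cd5 had a log2 difference of -0.41 (SE 0.30, edgeR adjusted p = 0.744), -0.08 without JAML-negative B and -0.68 without JAML-negative A. Cd6 was at 293 and 246 CPM in JAML-positive and 269 and 233 CPM in JAML-negative libraries A and B. Library A was above library B in both groups, and the log2 difference was 0.10 (SE 0.23, edgeR adjusted p = 0.941). Although they are neighbours, Cd5 and Cd6 differed in the sign of their fold change, a difference that was not tested.

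**Figure D3:**
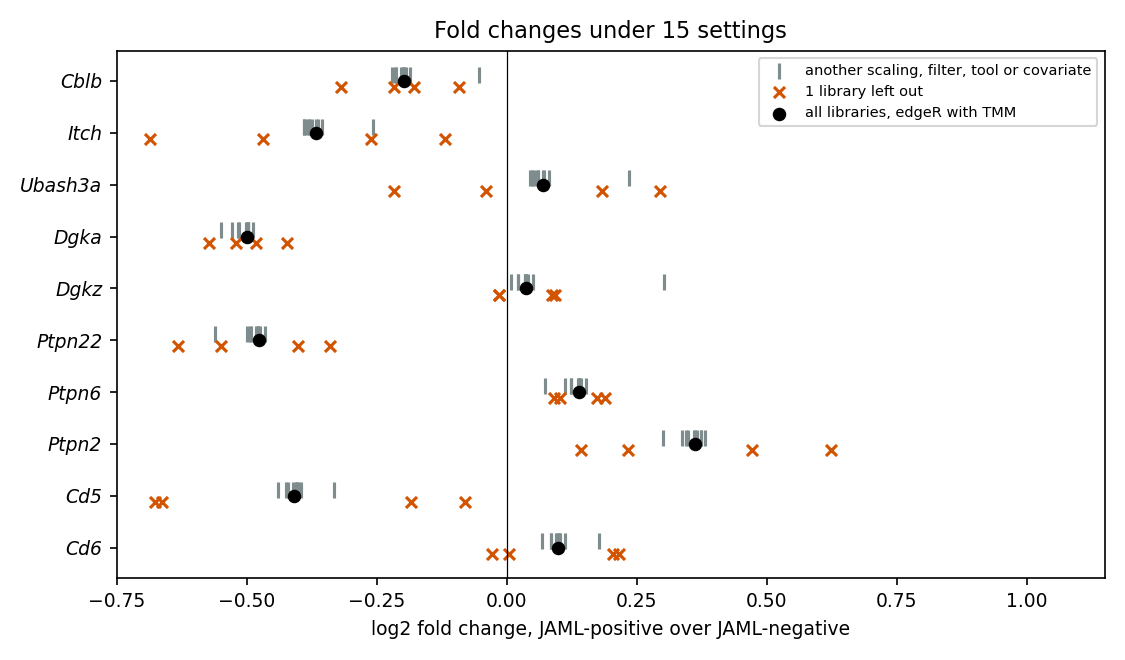
Log2 fold change of JAML-positive over JAML-negative cells for each gene under 15 settings: all libraries with edgeR and TMM scaling (black), other scalings, filters, tools or covariates (grey ticks) and 1 library left out (orange crosses). Dgka stayed between -0.57 and -0.42 and Ptpn22 between -0.63 and -0.34, while crosses of Ubash3a, Dgkz and Cd6 fall on both sides of 0.

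Fold changes of all genes moved with transcript length in this comparison, so lengths are given beside these results. The median log2 fold change was 0.31 for 585 genes whose longest transcript was under 1000 nucleotides and -0.21 for 605 genes over 8000. Between the A libraries these medians were 0.60 and -0.35, and between the B libraries 0 and -0.03, both on log2(CPM + 1). The longest transcripts of Cblb (6648 nucleotides), Itch (5309) and Ubash3a (7635) are long, and those of Ptpn6 (2308), Ptpn2 (2667), Ptpn22 (2757), Dgka (2834) and Cd5 (2989) shorter. Cd6 (4683) and Dgkz (4169) lie between. In the class of 2000 to 4000 nucleotides, which holds Dgka and Ptpn22, the median of all genes was 0.05. With the trends of length and base composition removed, the log2 fold change was -0.55 for Dgka and -0.56 for Ptpn22, as large as before, and both had an edgeR adjusted p of 0.615. For Cblb it was -0.05 (adjusted p = 0.964), and the median of the 10 genes was 0.01.

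**Figure D4:**
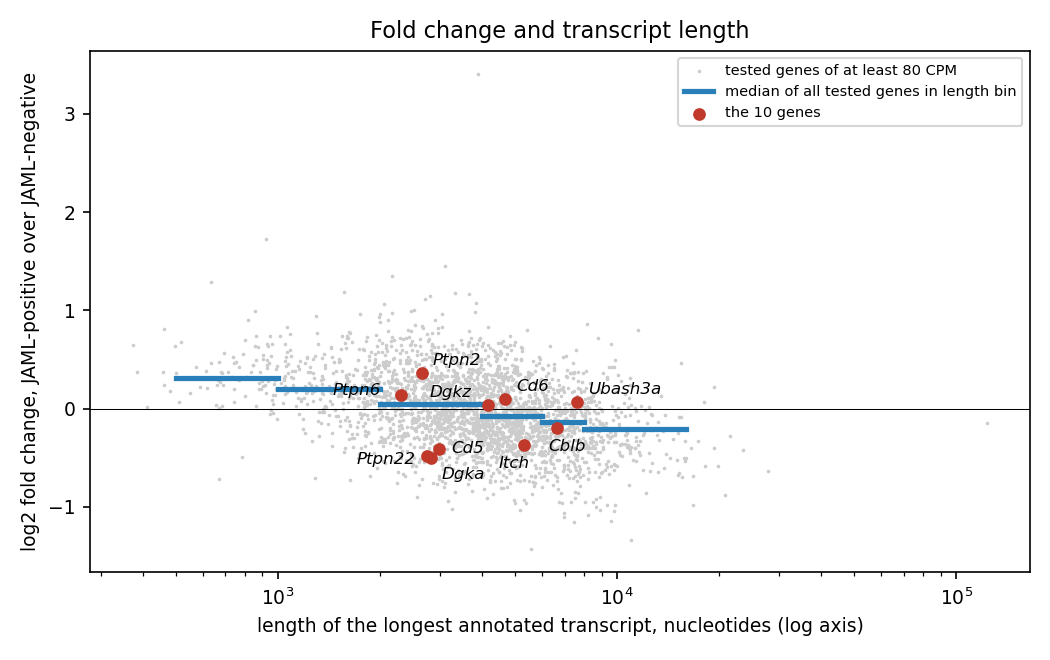
Log2 fold change of JAML-positive over JAML-negative cells against the length of the longest annotated transcript (log axis) for 2839 genes of at least 80 CPM (grey), with the 10 genes in red and blue bars at the median of all tested genes in each length class (outer classes drawn to 500 and 16000 nucleotides). The blue bars run from 0.31 for the shortest to -0.21 for the longest class, and Dgka, Ptpn22 and Cd5 lie below the bar of their class at 0.05.

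Per kilobase of the longest transcript, Ptpn22 and Dgka were the most abundant of the 10 genes in all 4 libraries. Ptpn22 ranged from 177 to 286 CPM per kilobase and Dgka from 184 to 277, so their ranges overlap. Ptpn6 (68.8 to 80.4 CPM per kilobase) and Dgkz (67.1 to 74.1) came next and overlapped each other. Cd6 (49.7 to 62.5), Cd5 (36.5 to 69.6), Ptpn2 (36.4 to 60.6) and Cblb (38.2 to 48.0) formed a run whose neighbours overlap, and Cd5 reached the ranges of Dgkz and Ptpn6. Itch (18.2 to 31.2) and Ubash3a (11.4 to 16.1) were lowest, and neither overlapped its neighbour above. The place of the lower genes depends on the transcript taken. With the median length of protein-coding transcripts the order of Ptpn22, Dgka and Ptpn6 was the same, but Ubash3a stood at 84.3 CPM per kilobase, sixth of the 10, against 13.4 and last by the longest transcript. Among all genes tested, Ptpn22 ranked 202 and Dgka 206 by mean CPM.

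**Figure D5:**
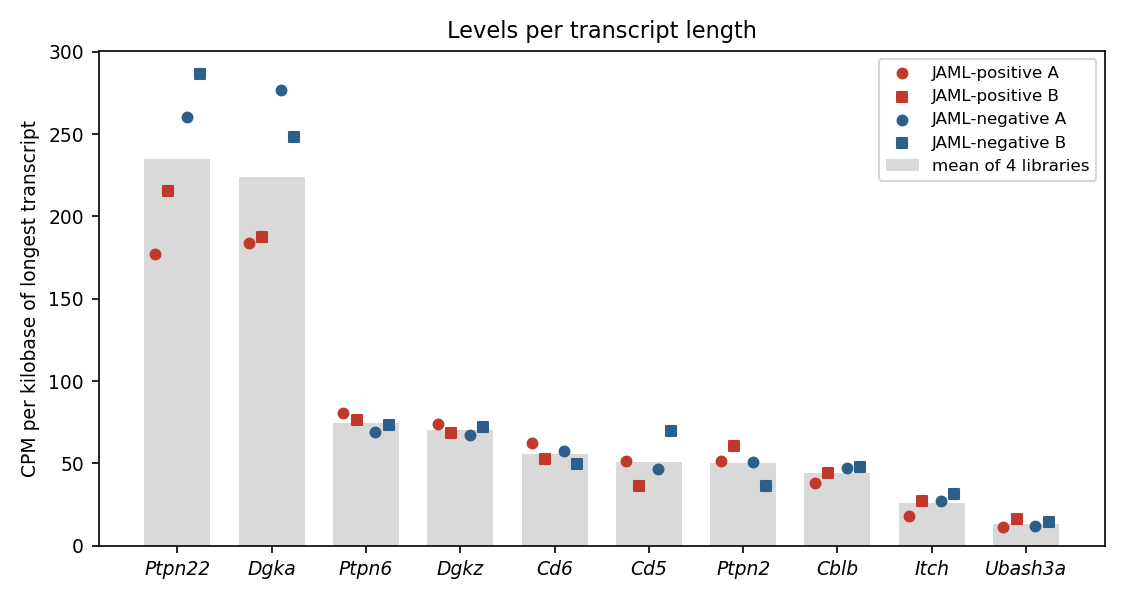
CPM per kilobase of the longest annotated transcript in each library, with JAML-positive libraries in red at the left and JAML-negative libraries in blue at the right of each grey bar, which is the mean of 4 libraries. Ptpn22 and Dgka lie between 177 and 286, above every value of the other 8 genes.

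Annotation in the deposited table placed 6 of the 10 genes, Cblb, Dgkz, Ptpn2, Ptpn22, Ptpn6 and Ubash3a, under negative regulation of T cell receptor signalling, a term of 24 genes in the table. The 3 phosphatases shared the term for non-membrane tyrosine phosphatase activity (10 genes). Cblb and Itch shared the term for T cell anergy (4 genes), and Cd5 and Cd6 that for scavenger receptor activity (29 genes).

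Of the relatives Cbl, Ubash3b, Dgkd and Ptpn1, none passed the edgeR threshold. Cbl, the ligase most like CBL-B, was at 186 and 309 CPM in JAML-positive and 395 and 322 CPM in JAML-negative libraries A and B (log2 fold change -0.53, SE 0.26, edgeR adjusted p = 0.609). Ubash3b encodes STS-1, the more active phosphatase of the pair with UBASH3A. It was at 128 and 118 CPM in JAML-positive and 70.4 and 88.4 CPM in JAML-negative libraries A and B. Both JAML-positive libraries of Ubash3b lay above, with a log2 fold change of 0.63 (SE 0.30, edgeR adjusted p = 0.609). Dgkd, the delta diacylglycerol kinase, was at 207 and 232 CPM in JAML-positive and 307 and 294 CPM in JAML-negative libraries A and B (-0.45, SE 0.22, edgeR adjusted p = 0.609). Ptpn1, the relative of Ptpn2, overlapped between groups (0.19, SE 0.29, edgeR adjusted p = 0.901).

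In a wider list of relatives and other negative regulators, 41 of 43 genes were in the table and tested, with 16 higher, 25 lower and 0 past the edgeR threshold in either direction (2 by DESeq2). Their median log2 fold change was -0.13, against 0.01 for all genes. The 1 gene of the list with an unadjusted p under 0.05 was Rc3h1, the gene of roquin-1, a protein that promotes decay of target messenger RNAs. Rc3h1 was at 94.0 and 98.7 CPM in JAML-positive and 292 and 194 CPM in JAML-negative libraries A and B (-1.33, SE 0.28, edgeR adjusted p = 0.609), and its longest transcript has 11006 nucleotides. Csk, the kinase that inactivates LCK, was nearly level at -0.02 (SE 0.22), and Ndfip1, an activator of ITCH, 0.28 (SE 0.22).

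A further list held the receptor, kinases and adaptors on which these genes act. Of 37 genes 36 were tested, with 11 higher, 25 lower and 0 past the edgeR threshold (3 by DESeq2), and a median of -0.17. Over all genes tested 49.3% had a lower value, and DESeq2 called 6.77%. An unadjusted p under 0.05 was found for 5, all lower, where 3.34% of all genes had that p and a lower value. Plcg1, the phospholipase that makes diacylglycerol, was at 188 and 223 CPM in JAML-positive and 313 and 306 CPM in JAML-negative libraries A and B (log2 fold change -0.59, SE 0.22, edgeR adjusted p = 0.609). Rasgrp2 encodes an exchange factor of RAP1 that responds to calcium. It was at 102 and 152 CPM in JAML-positive and 216 and 197 CPM in JAML-negative libraries A and B (-0.69, SE 0.27). Txk, a TEC family kinase, had -0.93 (SE 0.32), Sos1, an exchange factor of RAS, -0.98 (SE 0.39), and Bcl10, an adaptor to NF-kappaB, -0.69 (SE 0.30), all with an edgeR adjusted p of 0.609. Of these 5, Bcl10 has a longest transcript of 2368 nucleotides, and those of the others run from 5107 in Plcg1 to 8815 in Rasgrp2. The kinases Lck (-0.22, SE 0.20) and Zap70 (0.15, SE 0.24) had small values, as did Rasgrp1 (0.03, SE 0.24), the RAS activator that needs diacylglycerol.

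Of the cytokine signalling targets of PTPN2 and PTPN6 and the targets of ITCH, 14 of 14 were tested, with 3 higher, 11 lower, 0 past the edgeR threshold (1 by DESeq2) and a median of -0.23. Jak1, a target of PTPN2, had a log2 fold change of -0.38 (SE 0.19, edgeR adjusted p = 0.609), and Junb, a target of ITCH, -0.15 (SE 0.19). Notch1, which ITCH also ubiquitinates, was at 137 and 199 CPM in JAML-positive and 299 and 236 CPM in JAML-negative libraries A and B (-0.67, SE 0.26, edgeR adjusted p = 0.609). Of the partners of CD5 and CD6, 7 of 8 were in the table and tested, with 5 higher, 2 lower, 0 past the threshold of edgeR or DESeq2 and a median of 0.13. Alcam, the ligand of CD6, had 0.64 (SE 0.46).

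Several of the 10 genes are also used by B cells and myeloid cells, among them Ptpn6, Ptpn22 and Ptpn2, so lists of markers of other cells are given. In each list 0 genes passed the edgeR threshold in either direction. Of 12 B and plasma cell markers 9 were in the table and 5 tested, with 4 higher, 1 lower and 3 called by DESeq2. Among them Cd79a, Ms4a1, Pax5, Mzb1, Fcer2a and Blk had no counts in at least 1 library. Fcer2a, the lower marker, had 0 and 12 counts in JAML-positive and 248 and 125 counts in JAML-negative libraries A and B. Jchain had 2605 and 1596 counts in JAML-positive and 129 and 9 counts in JAML-negative libraries A and B. Most counts of this list in the JAML-positive libraries were of Jchain, so the sums say little of its other markers. Of 12 dendritic cell and class II markers 11 were tested, with 10 higher, 1 lower and 8 called by DESeq2, and Batf3 and Xcr1 had no counts in at least 1 library. The lower marker was Itgax, with 1986 and 1921 counts in JAML-positive and 3515 and 3193 counts in JAML-negative libraries A and B. Macrophage and neutrophil markers (9 of 12 tested, 6 higher, 3 lower) summed to 203 and 161 CPM in JAML-positive and 81.5 and 76.7 CPM in JAML-negative libraries A and B. Most of that difference was in Mpeg1, with 3145 and 2802 counts in JAML-positive and 212 and 382 counts in JAML-negative libraries A and B. Adgre1, 1 of the 3 lower, had 80 and 79 counts in JAML-positive and 129 and 99 counts in JAML-negative libraries A and B. S100a8 had no counts in either JAML-positive library and 1 and 0 counts in JAML-negative libraries A and B. CD4 and regulatory T cell markers (7 of 7 tested, 6 higher, 1 lower, 2 called by DESeq2) summed to 671 and 793 CPM in JAML-positive and 556 and 514 CPM in JAML-negative libraries A and B, and Foxp3 had no counts in JAML-positive B. The largest part of these counts was of Ctla4, with 9439 and 12184 counts in JAML-positive and 8178 and 5989 counts in JAML-negative libraries A and B. Ikzf2, the lower marker, had 1106 and 1832 counts in JAML-positive and 2949 and 2286 counts in JAML-negative libraries A and B. T cell markers (8 of 9 tested, 4 higher, median 0.01) summed to 4648 and 4140.4 CPM in JAML-positive and 4316 and 4273 CPM in JAML-negative libraries A and B. NK cell markers (8 of 8 tested, 3 higher) summed to 855 and 631 CPM in JAML-positive and 823 and 796 CPM in JAML-negative libraries A and B, so these sums overlapped. Most of these counts were of Gzma, with 17721 and 13433 counts in JAML-positive and 17430 and 15604 counts in JAML-negative libraries A and B. The overlap of the sums thus says little of the other markers of this list. Hepatocyte markers (3 of 8 tested, 2 higher) summed to 33.4 and 42.0 CPM in JAML-positive and 65.8 and 32.5 CPM in JAML-negative libraries A and B, and overlapped too. Among them Afp had 94 and 224 counts in JAML-positive and 613 and 640 counts in JAML-negative libraries A and B (log2 fold change -2.03, SE 0.83, edgeR adjusted p = 0.609). Apoa1, Apoa2, Ttr, Serpina1a and Cyp3a11 had no counts in at least 1 library. Endothelial, stromal and red cell markers (7 of 8 tested, 6 higher) summed to 170 and 160 CPM in JAML-positive and 139 and 146 CPM in JAML-negative libraries A and B. Most of these counts were of Pecam1, an endothelial gene that T cells also express, with 2641 and 3863 counts in JAML-positive and 3549 and 4010 counts in JAML-negative libraries A and B. Hba-a1, a haemoglobin gene, had 591 and 128 counts in JAML-positive and 0 and 1 counts in JAML-negative libraries A and B. Hbb-bs, another haemoglobin gene, had 718 and 268 counts in JAML-positive and 0 counts in both JAML-negative libraries. Their part in the results on the 10 genes was not tested. In bulk RNA of a sort, fewer cells of a type and less RNA per cell cannot be told apart.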

How the data were processed

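RNA of sorted CD8 T cells was made into libraries with a SMARTER mRNA-Seq kit, per the labels' protocols. The authors deposited whole-number read counts per gene, with no normalization recorded. Per the submitters' processing notes, reads were placed on GRCm38 (mm10). Which aligner, counter, annotation and strand setting were used is not given in these sources. Depth was 27530187 to 30569728 counts per library. Reads carry no molecular identifiers, so counting errors cover counting alone.

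The main test was that of edgeR 4.0.16 (R 4.3.3). Low genes were removed with filterByExpr (minimum count 10), scaled with TMM and tested with the bias-adjusted quasi-likelihood method (robust), JAML-positive against JAML-negative, with no covariate and Benjamini-Hochberg adjustment over all genes at 0.05. SE is the absolute log2 fold change over the square root of F, and 95% intervals use a t quantile. CPM are on the TMM scale. Scripts were tested on counts simulated for 2 against 2 libraries. Of 100 genes with a true log2 change of 1 in size, edgeR recovered 7%, DESeq2 19% and limma-voom 10%. For a change of 2 these shares were 59%, 74% and 45%. Among unchanged genes, edgeR made 7 false calls, DESeq2 151 and limma-voom 3. Alternatives were other scalings, filters, DESeq2 1.42.0 (with its own filter), limma-voom 3.58.1, a block on the library letter, length and composition trends removed (96.1% of tested genes have a length) and each library left out. Lengths are from GENCODE M21 and positions from RefSeq GRCm38.p6, matched by Entrez identifier. Promoter windows are from RefSeq GRCm38.p6 and were matched by gene symbol. The 10 genes and the lists were chosen with earlier results of these data known. Named genes were the 10, their relatives Cbl, Ubash3b, Dgkd and Ptpn1, 4 checks (Jaml, Cd8a, Cd3e and Cd4) and, per list, up to 8 genes with an unadjusted p under 0.05 and at least 10 CPM. Csk, Ndfip1, Lck, Zap70, Rasgrp1, Jak1, Junb, Alcam and the markers with values of their own were named outside this rule, for their role or level, after their values were seen. Cd3e (425 ± 7.12 CPM in JAML-positive, 411 ± 45.9 CPM in JAML-negative cells) and Cd4 (153 ± 28.0 CPM in JAML-positive, 122 ± 3.15 CPM in JAML-negative cells) did not pass (SD, n = 2 each; edgeR adjusted p = 0.971 and 0.780). The values of a further marker gene are not reported here.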

Additional observations from a re-analysis of the deposited data

How the results depend on the processing

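Dgka and Ptpn22 had lower values in JAML-positive cells, Cblb, Itch and Cd5 likewise, and Ptpn6 and Ptpn2 higher values, under each of 14 alternatives. Those of Dgkz, Cd6 and Ubash3a changed sign, and ranged from -0.015 to 0.30, -0.028 to 0.22 and -0.22 to 0.29 in that sequence. Dgkz had -0.015 without JAML-positive A, -0.015 without JAML-negative A, and with DESeq2 -0.015 and -0.027 without the same libraries (with a library left out, edgeR's highest was 0.093, without JAML-negative B). Cd6 had -0.028 without JAML-positive A and 0.22 without JAML-positive B, and with DESeq2 -0.028 without JAML-positive A and -0.015 without JAML-negative B. Ubash3a had 0.29 without JAML-positive A, -0.22 without JAML-positive B, -0.040 without JAML-negative A, and with DESeq2 -0.23 and -0.058. Over all genes, 2 were higher with no filter on low counts and 2 with at least 5 CPM, where 0 had been called. DESeq2 called 487 higher and 348 lower genes, and 2 of the 10 genes as lower. With a library left out, edgeR called 0 to 10 higher and 0 to 1 lower genes, the highest without JAML-positive B, and 0 of the 10. DESeq2 with a library left out, an alternative chosen after seeing the data like the earlier quasi-likelihood method of edgeR, called 207, 544, 1205 and 1150 higher and 618, 970, 458 and 403 lower genes without JAML-positive A, JAML-positive B, JAML-negative A and JAML-negative B in turn. Of the 10 genes it then called 2, 3, 0 and 1 as lower, with Itch as the third without JAML-positive B (DESeq2 adjusted p = 0.0228). In these fits the lone library of a group is assumed to vary like the other group's. The median log2 fold change of the 10 genes ran from -0.20 to -0.038 with a library left out in edgeR, was -0.21 and -0.14 in DESeq2 without JAML-positive B and JAML-negative A, and was 0.011 with length and composition trends removed. The cause of these shifts was not tested. Library letters were not shown to pair the libraries, as deviations of same-letter libraries had a correlation of 0.018 across genes. With the letter as a replicate block 0 genes passed, 0 of the 10 had an unadjusted p under 0.05, and the median was -0.083. With 2 libraries a group, the exact permutation test cannot give a p below 0.333.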

Other observations

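Ratios of related genes within a library do not depend on scaling, and 6 were computed. The ratio of Dgka to Dgkz in CPM was 1.69 and 1.86 in JAML-positive and 2.81 and 2.34 in JAML-negative libraries A and B. That of Ptpn22 to Ptpn6 was 2.63 and 3.38 in JAML-positive and 4.52 and 4.67 in JAML-negative libraries A and B, and that of Ubash3a to Ubash3b 0.676 and 1.04 in JAML-positive and 1.32 and 1.22 in JAML-negative libraries A and B. In these 3 ratios both JAML-positive libraries lay below both JAML-negative ones. By a two-sided exact permutation test each had p = 0.333, the smallest that 2 against 2 libraries can give (0.5 after Benjamini-Hochberg adjustment over the 6). The ratio of Ptpn2 to Ptpn1 lay above in both JAML-positive libraries (1.12 and 0.985, against 0.909 and 0.947 in JAML-negative libraries A and B), also with p = 0.333 by the exact test. Ratios of Cblb to Cbl and of Cd5 to Cd6 overlapped between the groups.

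The 10 genes together took 2524 and 2664 CPM in JAML-positive and 3035 and 3092 CPM in JAML-negative libraries A and B. Dgka and Ptpn22 made up most of that difference in CPM.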
